A study of Mus musculus with 6 samples.

Results

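Keratin-associated proteins are the small matrix proteins of the hair shaft. In the cells of the growing shaft they fill the space between the hair keratin filaments and are crosslinked to them through cysteines, or pack against them through stretches of glycine and tyrosine. Their genes (Krtap in mouse) are short, lie in clusters and are transcribed late in hair cell differentiation, during the growth phase of the follicle. They are usually divided by composition into high glycine-tyrosine, high sulfur and ultra-high sulfur classes, and each gene carries a subfamily number.

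The Krtap genes described here are all rows of an RNA-seq gene table whose Ensembl ID maps to a mouse protein-coding symbol that begins with Krtap, 57 of 33184 rows. They carry 27 subfamily numbers, and by those numbers 15 were high glycine-tyrosine, 20 high sulfur, 17 ultra-high sulfur and 5 of another number. Of the 57, 24 lie on chromosome 16, 23 on chromosome 11, 5 on chromosome 7, 3 on chromosome 10 and 2 on chromosome 1. Another row with a Krtap symbol, Krtap19-9a, is a processed pseudogene in GENCODE vM21 and was not counted as a member.

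The 6 libraries came from wound tissues of db/db mice, a diabetic line with a defective leptin receptor gene, that were depilated before a round 6 mm skin wound was cut. The mice received NC siRNA (control) or SFRP2 siRNA at dpi1, under the skin at sites around each wound, and tissue was taken at dpi4, although the sample titles say day 3. There were 3 NC libraries and 3 libraries labelled SFRP2-siRNA, so an exact permutation test of a single gene cannot give a p below 0.1. The study's supplement lists its SFRP2 siRNAs under the same numbers as the treated libraries, and neither source states whether each library received a different sequence. No source used here says whether the tissue pieces held equal amounts of hair-bearing skin, and sex and age are not given in the sources used here.

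Depth was even, from 42.9 M to 47.1 M reads. Library SFRP2-siRNA 1 stood apart from the other 5 libraries in hair follicle transcripts, and fold changes below are given with and without it. Values are in FPKM, by name fragments per kilobase of gene length relative to the library's reads, although mates of a pair were counted singly. Sfrp2, the siRNA target, was at 11.6, 40.6 and 14.1 FPKM in NC, and the 3 treated libraries held 50.6, 54.6 and 55.2 FPKM. At dpi4 no library labelled SFRP2-siRNA was below any NC library in its target (log2 fold change 1.45, adjusted p = 0.518, limma; 1.49 without SFRP2-siRNA 1, adjusted p = 0.427).

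Promoter sequences are shown for the most abundant member of each class with a RefSeq window, followed by 2 members of subfamily 5 that differed widely between NC libraries and were chosen after their values were seen. Each window runs from 250 bases before to 50 bases after the RefSeq transcript start on GRCm38.p6, 5′ to 3′ on the gene's strand. Capitals mark TATAAA (the TATA box core), CTTTGA (a LEF1 core) and TTTATNG (a HOXC13 core) or their reverse complements. Krtap8-1 is high glycine-tyrosine (chr16:89487903-89488202, minus strand), Krtap3-1 high sulfur (chr11:99566581-99566880, minus strand) and Krtap9-3 ultra-high sulfur (chr11:99598057-99598356, minus strand). Krtap5-2 (chr7:142175956-142176255, minus strand) and Krtap5-5 (chr7:142229922-142230221, minus strand) are also ultra-high sulfur.
Krtap8-1: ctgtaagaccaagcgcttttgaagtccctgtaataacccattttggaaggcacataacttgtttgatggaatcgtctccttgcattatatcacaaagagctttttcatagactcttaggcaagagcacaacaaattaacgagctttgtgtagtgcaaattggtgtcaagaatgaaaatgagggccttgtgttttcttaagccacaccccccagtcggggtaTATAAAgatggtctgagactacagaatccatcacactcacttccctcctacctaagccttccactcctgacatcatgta
Krtap3-1: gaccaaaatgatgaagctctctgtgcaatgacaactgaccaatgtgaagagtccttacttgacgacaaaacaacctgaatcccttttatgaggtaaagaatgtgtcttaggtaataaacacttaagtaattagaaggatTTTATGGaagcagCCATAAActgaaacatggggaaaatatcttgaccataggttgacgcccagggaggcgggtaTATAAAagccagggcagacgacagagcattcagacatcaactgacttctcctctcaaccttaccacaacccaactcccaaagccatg
Krtap9-3: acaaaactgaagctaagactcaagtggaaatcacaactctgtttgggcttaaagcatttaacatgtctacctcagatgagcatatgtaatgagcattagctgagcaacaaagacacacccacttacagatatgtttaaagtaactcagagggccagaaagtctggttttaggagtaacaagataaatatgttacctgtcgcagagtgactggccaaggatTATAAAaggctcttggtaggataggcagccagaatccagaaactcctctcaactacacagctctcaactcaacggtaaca
Krtap5-2: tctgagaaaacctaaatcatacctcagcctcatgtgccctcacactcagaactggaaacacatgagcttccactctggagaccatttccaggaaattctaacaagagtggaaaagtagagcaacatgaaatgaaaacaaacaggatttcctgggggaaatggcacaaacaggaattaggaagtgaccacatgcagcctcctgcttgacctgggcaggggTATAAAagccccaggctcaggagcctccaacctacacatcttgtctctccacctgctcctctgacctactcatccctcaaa
Krtap5-5: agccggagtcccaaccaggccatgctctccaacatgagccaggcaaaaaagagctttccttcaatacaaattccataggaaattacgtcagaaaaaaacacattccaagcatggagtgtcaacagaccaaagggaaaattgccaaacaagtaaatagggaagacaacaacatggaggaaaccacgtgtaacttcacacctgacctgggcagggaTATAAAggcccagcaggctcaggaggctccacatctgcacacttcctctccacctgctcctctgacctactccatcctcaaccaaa

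In these windows TATAAA began 29 bases before the start in Krtap8-1, 37 in Krtap3-1, 30 in Krtap9-3, 31 in Krtap5-2 and 36 in Krtap5-5. Windows were given for 51 of the 57 members. TATAAA stood on either strand in 42 of the 51 (82.4%), against 14.2% of all 27025 promoter windows of the same length. It began 40 to 21 bases before the start in 31 Krtap windows (60.8%), against 2.22% of all windows. CTTTGA stood in 15 Krtap windows (29.4%, against 16.2% of all) and TTTATNG in 8 (15.7%, against 11.3%), on either strand, and an overlap of TTTATNG with TATAAA was counted for both. Many of these windows belong to neighbouring duplicated genes, so they are not independent, and a match is a description of letters, not of a bound site.

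The coding sequences matched the class that the subfamily number gives only in part. Among high glycine-tyrosine members, glycine and tyrosine took from 29.9% (Krtap7-1) to 69.2% (Krtap6-1) of codons, with a median of 63.3%. Cysteine took from 27.2% (Krtap9-3) to 41.5% (Krtap5-5) of codons in ultra-high sulfur members and from 4% (Krtap15) to 30.6% (Krtap1-3) in high sulfur members. The high sulfur members of chromosome 16 held at most 12.7% cysteine codons (Krtap13). That is within the range of the high glycine-tyrosine class, which reached 16.7% (Krtap20-2). Krtap16-3, high sulfur by its number, read as glycine-tyrosine rich, with 59.3% glycine and tyrosine codons and 8.14% cysteine codons. Krtap28-10 and Krtap28-13, in no class by number, held 42.9% and 42.8% cysteine codons together with 38.7% and 42% glycine and tyrosine codons. In 14 members more than 25% of the 50-base stretches of the transcript also occur in another gene, most in Krtap4-13 (81.3%) and Krtap5-1 (54.3%), and their values are uncertain where reads could fall on either copy.

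The question for this family was how much shaft matrix transcript the wound tissues held and whether it differed between SFRP2 siRNA and NC. Krtap transcripts were abundant in 5 libraries and nearly missing in SFRP2-siRNA 1. Summed over the 57 members, they came to 7779, 3707 and 7459 FPKM in NC 1, NC 2 and NC 3. The sums in the libraries labelled SFRP2-siRNA were 59.9, 21463 and 13642 FPKM. The treated group thus held both the lowest sum and the 2 highest, with a mean of 11722 ± 10830 (SD, n = 3) FPKM against 6315 ± 2264 (SD, n = 3) in NC, and the groups overlapped. SFRP2-siRNA 1 was at 0.949% of the NC mean, and SFRP2-siRNA 2 and 3 were 3.4-fold and 2.16-fold above it. Krtap transcripts made up 1.76%, 1.02% and 2.02% of all FPKM in the NC libraries, 5.73% and 3.78% in SFRP2-siRNA 2 and 3, and 0.0167% in SFRP2-siRNA 1. In bulk tissue, fewer cells of a type and less RNA per cell cannot be told apart.

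**Figure D1:**
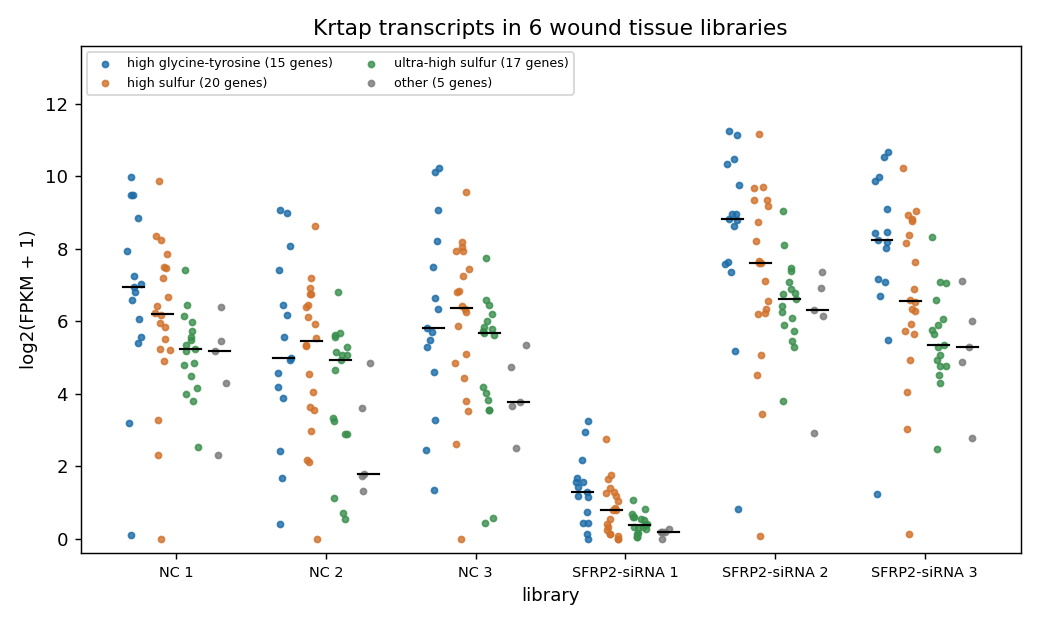
Level of each of the 57 Krtap genes, log2(FPKM + 1) on the vertical axis, in each of the 6 libraries on the horizontal axis. Each point is 1 gene, coloured by class, and black bars are class medians. In SFRP2-siRNA 1 all classes sit near the bottom of the axis, and SFRP2-siRNA 2 holds the highest medians.

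SFRP2-siRNA 1 held the lowest value of the 6 libraries in 56 of 57 members, against 14.3% of all 16005 genes tested. In 50 members it was at least 10-fold below each of the other 5 libraries, with a value of 0 set to 3 reads, a gap seen in 231 of the tested genes (1.44%). Across members with NC values above 0, its level ran from 0 to 2.88% (Krtap19-2) of the NC mean, with a median of 0.911%. The library was not empty of Krtap reads: 1781 were counted, against 121683 to 661972 in the others. In SFRP2-siRNA 1 the median was 16 and the maximum 229 reads per member (Krtap7-1). Of the 57 members, 17 had under 10 reads there, and 19 were above 1 FPKM. Krtap13, Krtap20-2, Krtap27-1 and Krtap29-1 were listed at 0. A count of 0 allows up to 3 reads, which is 0.131 FPKM for Krtap20-2, 0.108 FPKM for Krtap27-1 and 0.0679 FPKM for Krtap29-1, covering counting error only.

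The shares of the classes were nearly alike in libraries whose sums differed by over 10-fold, while shares of single subfamilies varied more, as given below for subfamily 19. High glycine-tyrosine members took 50.5%, 48.8% and 50.1% of Krtap FPKM in the NC libraries and 53.5%, 52.2% and 55.8% in the treated ones. High sulfur members took 33.8% to 37.2% and ultra-high sulfur members 8.43% to 13% in the 6 libraries. Krtap7-1 alone took 10.6% to 14.9%, also in SFRP2-siRNA 1 (14.3%). Across the 57 members, the rank order in SFRP2-siRNA 1 gave a Spearman's rho of 0.96 with SFRP2-siRNA 2, 0.93 with SFRP2-siRNA 3, 0.92 with NC 1, 0.87 with NC 2 and 0.85 with NC 3, a description across genes that share clusters and sequence. The low Krtap signal of SFRP2-siRNA 1 was thus spread over the classes in about the same proportions as in the other 5 libraries. Whether all of it came from RNA of that tissue was not tested.

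High glycine-tyrosine members were the most abundant. Krtap7-1 was at 1009.7, 543 and 1115 FPKM in NC and at 8.59, 2266 and 1644 FPKM in the treated libraries. Krtap8-1 was at 723, 504 and 1206 FPKM in NC and at 6.78, 2447 and 1493 FPKM. Both had 1 treated library far below and 2 above every NC library, and neither passed the test (Krtap7-1 log2 fold change -1.37 ± 1.99 (SE), adjusted p = 0.751; Krtap8-1 -1.32 ± 2.07 (SE), adjusted p = 0.77; limma). The exact two-sided permutation p was 1 for each. Without SFRP2-siRNA 1 the log2 differences were 1.18 ± 0.42 (SE) for Krtap7-1 and 1.33 ± 0.46 (SE) for Krtap8-1, with adjusted p = 0.487 and 0.472 (limma).

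The other glycine-tyrosine subfamilies shared this order with different heights. Krtap22-2 lay between 268 and 716 FPKM in NC, at 3.51 in SFRP2-siRNA 1 and at 1429 and 1012 in the other 2 treated libraries. Krtap6-5, the highest of 4 subfamily 6 members, lay between 129 and 296 FPKM in NC, at 2.19 in SFRP2-siRNA 1 and at 502 and 355. Krtap21-1 lay between 17.4 and 43.5 FPKM in NC, at 0.358 in SFRP2-siRNA 1 and at 163 and 103. The remaining subfamily 6 members, Krtap6-1 to Krtap6-3, lay between 2.22 and 181 FPKM in NC, at most at 1.96 in SFRP2-siRNA 1 and between 35.6 and 455 in SFRP2-siRNA 2 and 3. Krtap20-2 was the exception in level, with no library above 1.55 FPKM (NC 3) and no clear order. In 14 of the 15 class members SFRP2-siRNA 2 and 3 were both above all NC libraries, against 23.7% of all 16005 genes tested. The count sets SFRP2-siRNA 1 aside and is a description.

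Subfamily 19 was uneven among the NC libraries. Krtap19-5, its highest member, was at 463, 71.9 and 99 FPKM in NC 1, NC 2 and NC 3, and at 1.95, 1299 and 939 FPKM in the treated libraries. Krtap19-1 was at 66.4, 4.4 and 4.45 FPKM in NC and at 0.659, 198 and 143 FPKM in the treated libraries. NC 1 thus stood well above both other NC libraries, though below SFRP2-siRNA 2 and 3. Krtap19-2, Krtap19-3, Krtap19-4 and Krtap19-9b lay between 13.7 and 243 FPKM in NC, at most at 1.69 in SFRP2-siRNA 1 and between 259 and 869 in SFRP2-siRNA 2 and 3. The 6 members of this subfamily took 14.5% of Krtap FPKM in NC 1, 5.31% in NC 2 and 3.98% in NC 3, and 13.7% to 18.2% in the treated libraries.

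Among high sulfur members, Krtap3-1 led. It was at 930.3, 394 and 762 FPKM in NC and at 5.75, 2301 and 1203 FPKM in the treated libraries. The log2 fold change was -1.3 ± 2.07 (SE, adjusted p = 0.773, limma; exact permutation p = 1), and 1.35 ± 0.48 (SE, adjusted p = 0.487) without SFRP2-siRNA 1. Krtap1-5 lay between 86 and 300.4 FPKM in NC, at 2.15 in SFRP2-siRNA 1 and at 836 and 491 in the other treated libraries. Krtap2-4 lay between 45.9 and 75.6 FPKM in NC, at 0.732 in SFRP2-siRNA 1 and at 193 and 118, with 43.8% of its 50-base stretches shared with other genes. These members of subfamilies 1 to 3, on chromosome 11 and transcribed in the shaft cortex in human hair, again had the lowest and the 2 highest values in the treated group. Krtap3-2 and Krtap3-3 lay between 39.6 and 324 FPKM in NC, at most at 1.42 in SFRP2-siRNA 1 and between 95.9 and 653 in SFRP2-siRNA 2 and 3. Krtap1-3 was at 44.4 to 113 FPKM in NC, 1.06 in SFRP2-siRNA 1 and 137 and 91.6 in the other treated libraries, which overlapped NC.

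The chromosome 16 high sulfur genes gave a like order. Krtap15 lay between 145 and 294 FPKM in NC, at 2.39 in SFRP2-siRNA 1 and at 817 and 529 in the other treated libraries. Krtap14 lay between 106 and 247 FPKM in NC, at 1.44 in SFRP2-siRNA 1 and at 655 and 432. Krtap16-3, the glycine-tyrosine rich member named above, was at 145, 38.7 and 57.3 FPKM in NC and at 1.67, 585 and 455 FPKM. SFRP2-siRNA 2 and 3 both lay far above every NC library for it, and its log2 difference without SFRP2-siRNA 1 was 2.89 against 1.35 for Krtap3-1. Krtap11-1 lay between 108 and 265 FPKM in NC, at 1.29 in SFRP2-siRNA 1 and at 426 and 287. Krtap13-1 lay between 60.3 and 111 FPKM in NC, at 0.745 in SFRP2-siRNA 1 and at 297 and 199. Krtap26-1, at 22.6 to 84.6 FPKM in NC, was one of the members whose highest value was in NC 3, with 79.7 and 77.5 FPKM in SFRP2-siRNA 2 and 3 and 0.335 in SFRP2-siRNA 1. Krtap16-1 of chromosome 11 lay between 11.5 and 36.5 FPKM in NC, at 0.247 in SFRP2-siRNA 1 and at 72.6 and 48.9. Krtap24-1 and Krtap27-1 were low, at most 21.9 and 9.84 FPKM in any library.

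Subfamilies 10 and 12, described in human hair as proteins of the cuticle, were highest in NC 1 among the NC libraries. Krtap10-4 was at 61.4, 10.8 and 20.7 FPKM in NC and at 0.19, 94.1 and 52.4 FPKM in the treated libraries. Krtap12-1 was at 56.9, 15.5 and 27.8 FPKM in NC and at 0.107, 74.3 and 60 FPKM. Krtap10-10 lay between 6.95 and 29.2 FPKM in NC, at 0.0892 in SFRP2-siRNA 1 and at 32.6 and 29.7. For Krtap10-4 SFRP2-siRNA 3 therefore lay below NC 1, while for Krtap12-1 and Krtap10-10 it lay just above NC 1. Krtap1-3 and Krtap1-4 of the cortex subfamilies also had SFRP2-siRNA 3 below an NC library, so this was not particular to the cuticle subfamilies. Krtap13 was listed at 0 in NC and SFRP2-siRNA 1, at 0.0495 and 0.0952 FPKM in the others, and was the single member that did not pass the filter of a mean of 0.5 FPKM.

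Ultra-high sulfur members were less abundant. Krtap9-3 was at 170.4, 112 and 213 FPKM in NC and at 1.11, 524 and 322 FPKM in the treated libraries. Its log2 fold change was -1.18 ± 1.97 (SE, adjusted p = 0.783, limma; exact permutation p = 1), and 1.36 ± 0.35 (SE, adjusted p = 0.308) without SFRP2-siRNA 1. Krtap17-1 lay between 32.4 and 87.1 FPKM in NC, at 0.459 in SFRP2-siRNA 1 and at 166 and 134 in the other treated libraries. Krtap4-1 lay between 48.4 and 94.7 FPKM in NC, at 0.757 in SFRP2-siRNA 1 and at 277 and 133. Krtap4-2, Krtap4-6, Krtap4-7 and Krtap4-16 lay between 29.8 and 73 FPKM in NC, at most at 0.61 in SFRP2-siRNA 1 and between 49.3 and 177 in SFRP2-siRNA 2 and 3. In subfamily 4, a cortex group, SFRP2-siRNA 3 lay close to NC. Summed over its 8 members, SFRP2-siRNA 2 and 3 were 2.74-fold and 1.3-fold above the NC mean, against 6.85-fold and 4.58-fold for subfamily 19. Krtap9-1 was at 21.6 to 50.3 FPKM in NC, 0.223 in SFRP2-siRNA 1 and 85.7 and 39.8 in the other treated libraries. Krtap9-5 was at 28.1, 1.17 and 10.8 FPKM in NC and at 0.216, 97.5 and 29.8 FPKM.

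The 5 members with the smallest limma p were Krtap4-13, Krtap4-9, Krtap1-4, Krtap4-8 and Krtap5-2. Krtap4-13 was at 4.84, 8.48 and 15.3 FPKM in NC and at 0.0286, 13.1 and 4.56 FPKM in the treated libraries (log2 fold change -1.16 ± 0.92 (SE), unadjusted p = 0.246, adjusted p = 0.601, limma; exact permutation p = 0.4). Krtap4-9 was at 14.8, 32.9 and 52.1 FPKM in NC and at 0.264, 52.8 and 18.8 FPKM (-1.47 ± 1.31 (SE), adjusted p = 0.63, limma). In both, NC 1 was the lowest NC library. SFRP2-siRNA 3 lay just below NC 1 for Krtap4-13 and within the NC range for Krtap4-9. Krtap1-4 was at 84.4, 82.6 and 151 FPKM in NC and at 0.471, 204 and 79.4 FPKM (-1.83 ± 1.70 (SE), adjusted p = 0.64). Krtap4-8 was at 27, 38.2 and 53.9 FPKM in NC and at 0.332, 76.2 and 32.7 FPKM (-1.37 ± 1.39 (SE), adjusted p = 0.663). Without SFRP2-siRNA 1 the log2 differences were -0.13 for Krtap4-13, 0.09 for Krtap4-9, 0.32 for Krtap1-4 and 0.38 for Krtap4-8, so these 4 had the smallest remaining differences of all 56 tested members.

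Krtap5-2 and Krtap5-3, in a subfamily described in the human hair cuticle, had the widest gap between NC libraries. Krtap5-2 was at 61.9, 0.638 and 0.504 FPKM in NC 1, NC 2 and NC 3 and at 0.253, 108 and 58.2 FPKM in the treated libraries. Krtap5-3 was at 35.4, 0.465 and 0.343 FPKM in NC and at 0.127, 66.9 and 26.2 FPKM in the treated libraries. NC 1 was thus 96.9-fold above NC 2 for Krtap5-2 and 76.2-fold for Krtap5-3, and both genes were under 1 FPKM in NC 2 and NC 3 as in SFRP2-siRNA 1. Krtap5-5, whose promoter is shown above beside that of Krtap5-2, was at 39.8, 9.1 and 17.2 FPKM in NC and at 0.317, 58.3 and 38.2 FPKM. Krtap5-1 and Krtap5-4, at 6.4 to 16.9 FPKM in NC, differed between NC 1 and NC 2 by 2.02-fold and 2.63-fold. The coding sequences of the pair also differed from the rest of the subfamily, with 36% (Krtap5-2) and 39.3% (Krtap5-3) glycine and tyrosine codons against 14.4% to 15.2% in the other 3. For Krtap5-2 the log2 fold change was 1.9 ± 2.07 (SE, adjusted p = 0.68, limma; exact permutation p = 0.7), and 3.9 ± 1.51 (SE, adjusted p = 0.518) without SFRP2-siRNA 1.

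Of the members in no class by number, Krtap31-1 and Krtap31-2 also had NC 1 well above NC 2 (7.68-fold and 28.8-fold). For Krtap28-10 and Krtap28-13 the ratio was 3.01 and 3.13, and Krtap29-1 was highest in NC 3 among the NC libraries. Krtap31-2 was at 43.4, 1.51 and 12.7 FPKM in NC and at 0.199, 120 and 38.2 FPKM in the treated libraries, and its near copy Krtap31-1 was at 18.7, 2.43 and 11.7 FPKM in NC. About 40% of the stretches of each are shared (41.5% and 39.5%), so the split between the pair is uncertain. Krtap28-10 was at 84.1, 28 and 39.5 FPKM in NC and at 0.146, 165 and 138 FPKM. Krtap28-13 lay between 11.3 and 35.5 FPKM in NC, at 0.141 in SFRP2-siRNA 1 and at 78.1 and 63.4. Krtap29-1 was low, from 2.3 to 4.71 FPKM in NC, listed at 0 in SFRP2-siRNA 1, and at 6.56 and 5.84 FPKM in SFRP2-siRNA 2 and 3.

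Over the family, NC 1 exceeded NC 2 by more than 5-fold in 10 members, against 0.4% of all genes tested. These were Krtap5-2, Krtap5-3, Krtap31-1, Krtap31-2, Krtap9-5, Krtap10-4, Krtap19-1, Krtap19-2, Krtap19-4 and Krtap19-5. In 7 members NC 1 was below NC 2, namely Krtap20-2, Krtap4-9, Krtap4-13, Krtap1-3, Krtap4-8, Krtap6-5 and Krtap9-1, and the median ratio was 2.19. The rank order of members in NC 1 was closer to those of SFRP2-siRNA 2 and 3 (Spearman's rho 0.97 and 0.96) than to those of NC 2 and NC 3 (0.82 and 0.79), while NC 2 and NC 3 were close to each other (0.98). These correlations are over 57 genes and describe single libraries. The make-up of the family thus divided the libraries differently from the siRNA groups, and animals, siRNA and tissue piece cannot be told apart in it.

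**Figure D2:**
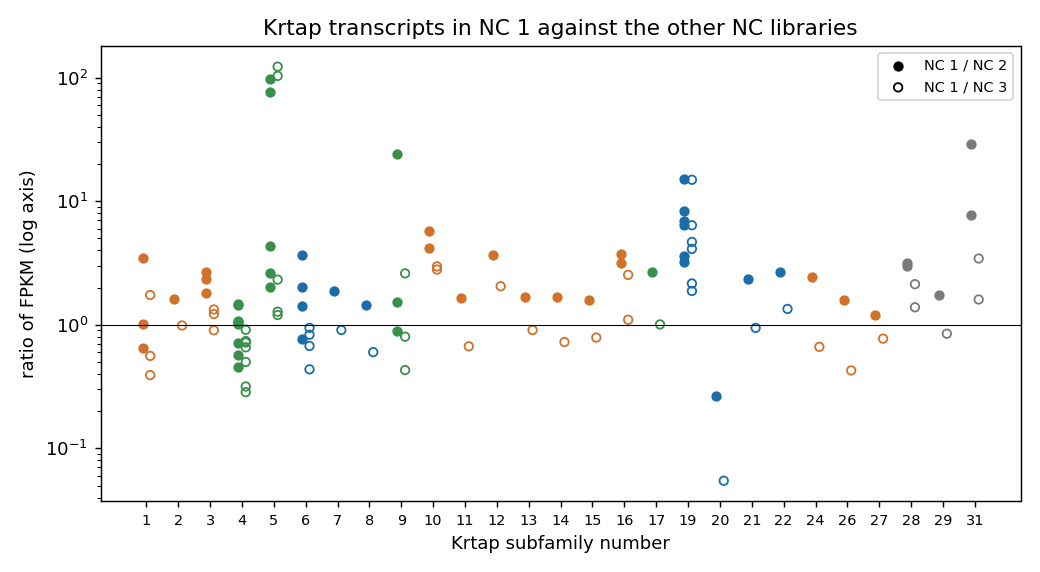
Ratio of FPKM in NC 1 to NC 2 (filled) and to NC 3 (open) for each Krtap gene above 0, on a log axis, by subfamily number. Blue is high glycine-tyrosine, orange high sulfur, green ultra-high sulfur and grey another number. The pair of points near 100 in subfamily 5 are Krtap5-2 and Krtap5-3, subfamily 19 lies wholly above 1, and subfamily 4 lies near or below 1.

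**Figure D3:**
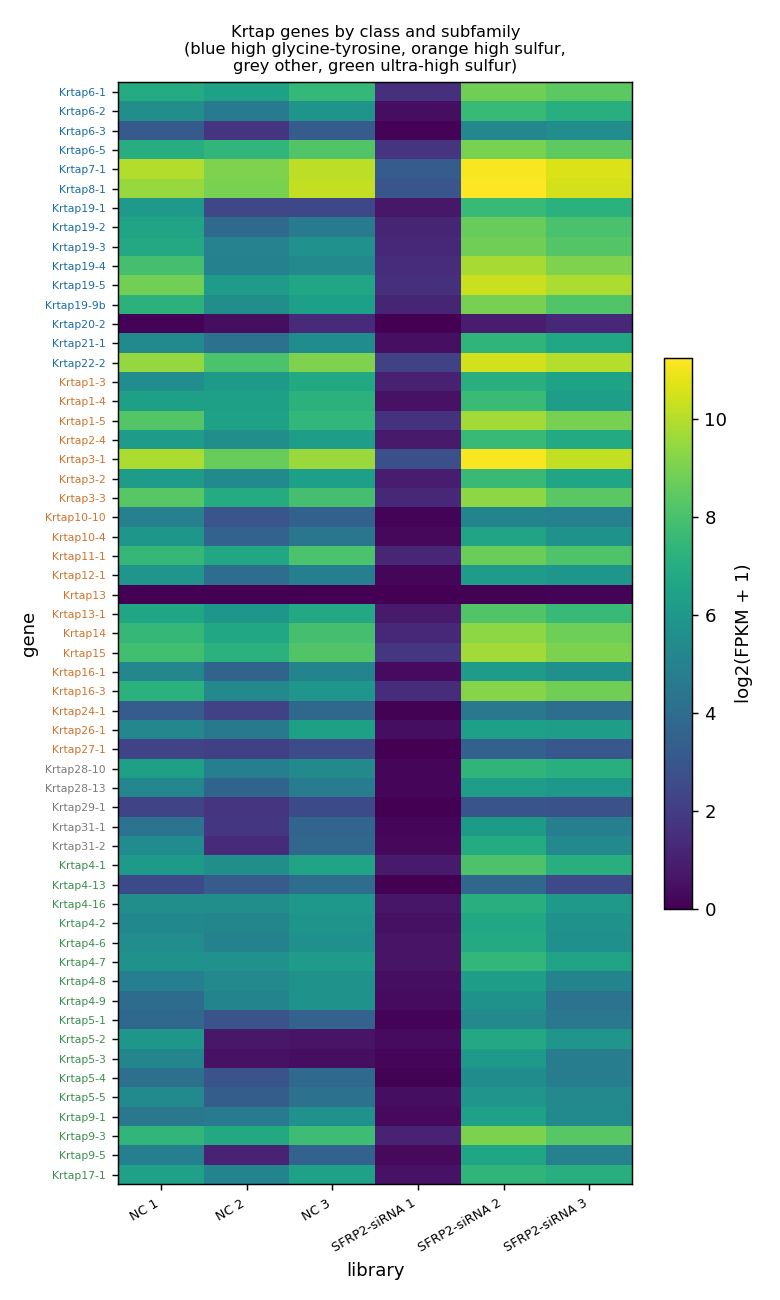
Log2(FPKM + 1) of all 57 Krtap genes (rows, ordered by class and subfamily) in the 6 libraries (columns). SFRP2-siRNA 1 is dark for all members, Krtap7-1, Krtap8-1, Krtap3-1 and Krtap22-2 are bright in the other 5, and Krtap5-2 and Krtap5-3 are dark in NC 2 and NC 3.

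In the comparison of SFRP2-siRNA with NC over all 6 libraries, no Krtap gene passed the threshold of an adjusted p under 0.05 and an absolute log2 fold change above 1. This was 0 of 56 tested members, as for all 16005 genes (0%), and voom on recovered reads also called 0. At an unadjusted p under 0.05 it was again 0 members, against 9.58% of all genes in limma and 9.26% in voom, which also had 0 members there. The smallest adjusted p of a member was 0.601. Log2 fold changes ran from -1.83 (Krtap1-4) to 1.90 (Krtap5-2), below 0 in 43 members and above 0 in 13, with a median of -0.66 against 0.13 over all genes tested. Over all 57 rows the median was -0.64. The standard errors were wide, with a median of 1.71 on the log2 scale against 0.168 over all genes, and the groups overlapped in every tested member, against 13.9% of all genes with no overlap and higher values and 3.92% with no overlap and lower values.

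The direction of that median rested on 1 library. Without SFRP2-siRNA 1, 55 of 56 members were higher in SFRP2-siRNA 2 and 3 than in NC on average, with a median log2 difference of 1.35 against 0.15 over all genes. None passed the adjusted threshold (0%; smallest adjusted p of a member 0.207, limma), and 47 had an unadjusted p under 0.05 and were higher, against 5.56% of all genes. In 42 members both remaining treated libraries lay above all 3 NC libraries, against 23.7% of all genes. Because the library was the outlying one for these same transcripts, the values without it are a description. With the group's arithmetic mean FPKM in place of the mean of log2(FPKM + 1), all 6 libraries included, 52 members were higher and 4 lower in the treated group, with a median log2 ratio of 0.69. The sign therefore depended on the scale on which the 3 treated libraries were averaged.

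**Figure D4:**
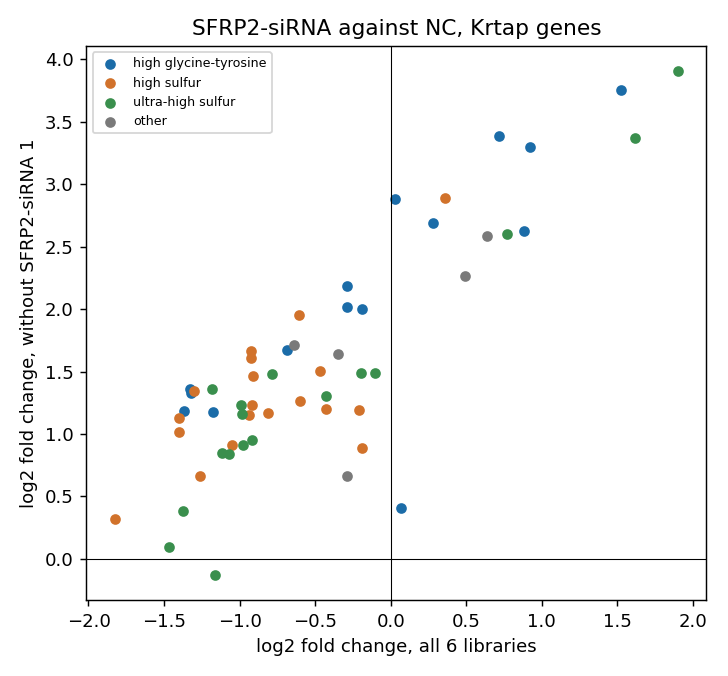
Log2 fold change (SFRP2-siRNA minus NC) of the 56 tested Krtap genes with all 6 libraries (horizontal) and without SFRP2-siRNA 1 (vertical), coloured by class. With all libraries 43 points lie left of 0, and without SFRP2-siRNA 1 all points but Krtap4-13 lie above 0.

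The hair keratins, which form the filaments that these proteins embed, were also lowest in SFRP2-siRNA 1 and highest in SFRP2-siRNA 2 and 3 in their sums, with NC 1 and NC 3 in the opposite order from the Krtap sums. The 15 measured hair shaft keratins (Krt31, Krt32, Krt33a, Krt33b, Krt34 to Krt36, Krt39, Krt40, Krt81 to Krt84, Krt86 and Krt87) summed to 1158.5, 655 and 1596 FPKM in NC, 12.7 in SFRP2-siRNA 1, and 2929 and 2454 in SFRP2-siRNA 2 and 3, with 0 past the threshold and a median log2 fold change of -0.92 (1.24 without SFRP2-siRNA 1). The ratio of summed Krtap to summed hair keratin FPKM stayed between 4.67 and 7.33 in all 6 libraries, SFRP2-siRNA 1 included (4.7).

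The inner root sheath, the layer that moulds the growing shaft, was also low in SFRP2-siRNA 1 but ordered the other libraries differently. Its 9 genes (Krt25 to Krt28, Krt71 to Krt74 and Tchh) summed to 2451 FPKM in NC 1, 3720.3 in NC 2 and 5432 in NC 3, and to 23.6, 5195 and 3691 FPKM in the treated libraries. NC 3 was the highest of the other 5 libraries in 6 of the 9, against 2869 of all 16005 genes tested. NC 1 lay below NC 2 in the median gene of the 9 (ratio 0.677). The ratio of Krtap to inner root sheath FPKM was accordingly 3.17 in NC 1, 0.996 in NC 2 and 1.37 in NC 3, and 2.54, 4.13 and 3.7 in the treated libraries. None of the 9 passed the threshold. Their median log2 fold change was -2.06 with all 6 libraries, with 9 of 9 below 0, against -0.66 for the Krtap genes. Without SFRP2-siRNA 1 the medians were 0.20 and 1.35.

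Transcription factors of the hair shaft lineage were lower in SFRP2-siRNA 1 by smaller factors. Hoxc13, a homeobox factor known to act on hair keratin and Krtap genes, was at 18.9, 13.8 and 24.2 FPKM in NC and at 0.435, 16.1 and 24.3 FPKM in the treated libraries (log2 fold change -1.19, adjusted p = 0.616, limma; 0.09 without SFRP2-siRNA 1). Foxn1, the nude gene, was at 9.78, 6.78 and 14.8 FPKM in NC and at 1.85, 17.6 and 16.5 FPKM. Hoxc13 in SFRP2-siRNA 2 thus lay within the NC range, where Krtap sums were far above it. Dlx3 was at 1.19 FPKM in SFRP2-siRNA 1 against 34.5 to 75.1 in NC, Msx2 at 0.568 against 8.52 to 19.3, Lef1 at 0.204 against 1.23 to 3.57 and Foxq1 at 0.443 against 1.46 to 2.86. All 6 were lowest in SFRP2-siRNA 1, with 0 past the threshold and a median log2 fold change of -0.53 (0.38 without that library).

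Markers of other cells in the tissue separated the low library further. In SFRP2-siRNA 1, summed markers of the companion layer (Krt75), of melanocytes (5 genes) and of other shaft proteins (5 genes) were at 1.8%, 5.5% and 0.99% of the NC mean. Bulge markers (6 genes) were at 93.5%, sebaceous gland markers (5 genes) at 129% and interfollicular epidermis markers (8 genes) at 134% in their sums. Single genes of these lists differed widely. Of the bulge list, Krt15, Cd34 and Nfatc1 were at 98.5% to 139.7% and Lgr5, Lhx2 and Sox9 at 49.1%, 22% and 20.6%, the lowest of the 6 libraries. Krt15 carried most of the bulge sum there (161 of 192 FPKM), and the median bulge gene was at 73.8%. The basal keratins Krt5 and Krt14, which carry the epidermal sum, were at 146% and 171%, whereas the median epidermal gene was at 71.5%, with Krt10 at 42.8%, Lor at 63.4% and Flg2 at 36%. Sebaceous genes were at 89.8% to 174%. Skeletal muscle markers were at 87.6%, adipocyte markers at 119%, fibroblast markers at 178% and macrophage markers at 206%. Fibroblast and macrophage sums were 777.6 to 1742 and 573 to 1053 FPKM in NC against 1922 to 2001 and 1194 to 1611 in the treated libraries. The part of such differences in tissue make-up in the Krtap values was not tested. In SFRP2-siRNA 2 and 3, Krtap sums were 3.4-fold and 2.16-fold above the NC mean. In these libraries bulge sums were 0.898-fold and 1.33-fold their NC mean, and epidermal sums 1.12-fold and 0.66-fold.

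**Figure D5:**
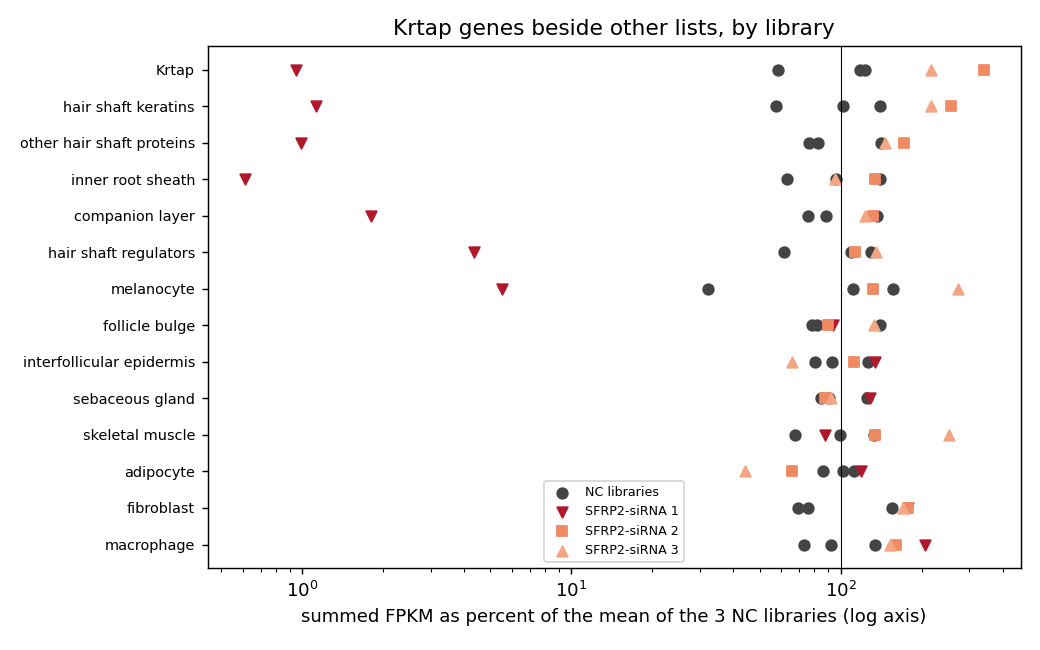
Summed FPKM of the Krtap genes and of 13 other gene lists in each library, as percent of the mean of the 3 NC libraries (log axis). SFRP2-siRNA 1 (red triangles) lies below 10% for the Krtap, hair keratin, other shaft, inner root sheath, companion layer, regulator and melanocyte lists, and near or above the NC libraries for the other 7.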

How the data were processed

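RNA of 6 wound tissue samples from db/db mice was sequenced by the authors as paired-end mRNA libraries, and the authors deposited 1 table of FPKM values with 1 column per library. HISAT2, featureCounts and Subread are named in the submitters' processing notes without versions, and the genome build and annotation are not given in the sources used here. Groups were taken from the sample titles, and each library was treated as 1 animal, which no label states, so p-values measure the spread between these libraries.

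Members and gene lists were chosen with earlier results of these data known. Symbols matched 32582 of 33184 IDs, and gene type and length were taken from GENCODE vM21. Multiplying FPKM by those lengths and a fitted library total gave whole reads (tolerance 0.05) for 31062 genes (93.6%) and all 57 Krtap genes. Values of 5000 reads or more were not checked for this. The fitted totals were 42.9 M to 47.1 M reads. Mates were counted singly, since 64.6% of values from 1 to 20 reads were even, so reads are not independent.

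Values were tested as log2(FPKM + 1) with limma 3.58.1 (R 4.3.3, intensity trend, two-sided, Benjamini-Hochberg over the 16005 genes whose mean reached 0.5 FPKM). Fold changes on this scale understate those of low genes. The fit was also tried on simulated data. These had independent genes, each with the same spread in all libraries, so they do not cover 1 outlying library. The thresholds were an adjusted p under 0.05 and an absolute log2 fold change above 1. FPKM values fit no count model. Single genes were also tested by exact permutation (scipy 1.17.1). Named genes were the highest member of each subfamily, the 5 smallest limma p, members past the threshold, 6 hair shaft regulators, hair keratins, inner root sheath genes and Sfrp2, and other members named were chosen after their values were seen. Codon shares were computed from the annotated coding sequences. Promoter windows were RefSeq's (GRCm38.p6), and 6 members had none. Alternatives were the pseudocount, filters, scalings, weights, a replicate block, voom and leaving out each library. Krt85 was not analysed here.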

Additional observations from a re-analysis of the deposited data

How the results depend on the processing

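No alternative put any Krtap gene, hair keratin or other gene past the threshold, and the smallest adjusted p of a Krtap gene over all fits was 0.207, without SFRP2-siRNA 1. With 1 library left out, the number of Krtap genes at an unadjusted p under 0.05 ran from 0 to 47, the median Krtap log2 fold change from -1.92 to 1.35 and the log2 difference of summed Krtap FPKM from -2.73 to 1.51 (-1.21 with all 6 libraries). The high ends are without SFRP2-siRNA 1, and the low ends of both differences without SFRP2-siRNA 2. Without SFRP2-siRNA 3 the median was -1.6. The same fits moved Krtap7-1 from -2.76 to 1.18, Krtap3-1 from -2.86 to 1.35, Krtap9-3 from -2.62 to 1.36, Krtap4-9 from -2.61 to 0.094, Krtap1-4 from -3.24 to 0.32, Krtap4-8 from -2.55 to 0.38 and Hoxc13 from -1.98 to 0.094.

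Estimated sample weights gave 3 Krtap genes at an unadjusted p under 0.05 and turned the median to 1.24, Krtap7-1 to 0.89, Krtap3-1 to 1.25, Krtap9-3 to 1.09, Krtap1-4 to 0.25 and Krtap4-8 to 0.26. The weight of SFRP2-siRNA 2 was 5.27, that of SFRP2-siRNA 1 was 0.495, and NC 1 had the lowest weight, 0.36. Arithmetic means, added after seeing the data, turned the median to 0.69 and the summed level to 0.89. Of 160 alternative fits of 10 single genes, Hoxc13 and Sfrp2 among them, 12 reversed the direction. All of these were with sample weights or without SFRP2-siRNA 1. The other 148 kept the direction, but the filters, the fit without a trend and the block leave the fold change as it was. No gene passed in any fit, so the count does not measure robustness. Same-numbered libraries had deviation correlations of -0.05, -0.15 and 0.38, so only number 3 deviated together, and the numbers were not taken as pairs. With the replicate block the median was -0.66, with 0 genes past the threshold and a smallest adjusted p of 0.453 for a Krtap gene.

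The low library limits Krtap folds there to a median of 16 reads per gene, and the filter at 0.5 FPKM removed 1 Krtap gene, Krtap13.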

Other observations

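Krtap19-9a, the row with a Krtap symbol that GENCODE vM21 lists as a processed pseudogene, was at 397, 72.8 and 118 FPKM in NC 1, NC 2 and NC 3 and at 2.81, 1607 and 1247 FPKM in the treated libraries. Its values had the order of the subfamily 19 members, with NC 1 above NC 2 and NC 3, and would have ranked among the most abundant members. The share of its sequence found in other genes was not computed, so whether reads of near copies add to its value is not known.

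The 5 melanocyte genes (Pmel, Tyr, Tyrp1, Dct and Mlana), which colour the shaft, summed to 123, 25.4 and 88.2 FPKM in NC and to 4.35, 104 and 215 FPKM in the treated libraries. SFRP2-siRNA 3, not SFRP2-siRNA 2, was highest for this list, unlike for the summed Krtap level. NC 2 was the lowest of the other 5 libraries in all 5 melanocyte genes and in 46 of 57 Krtap genes. Over all 16005 genes tested this held for 3040. Skeletal muscle markers summed to 11156 FPKM in SFRP2-siRNA 3 against 2981 to 5848 FPKM in NC.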
